A study of Mus musculus with 17 samples.

Results

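Ddit4 and Txnip, a pair of nutrient- and stress-regulated genes, stood in opposite order in the 3 hepatocyte genotypes, and 8 further genes of the glucocorticoid and fasting response were followed with them. The 10 genes were Ddit4, Txnip, Fkbp5, Tsc22d3, Tat, Angptl4, Sgk1, Irs2, Igfbp1 and Zbtb16. They were taken by gene symbol from 49315 genes measured in mouse liver and 15632 genes listed in isolated mouse hepatocytes, and all 10 had enough counts to be tested in both. The set was chosen by the measured difference of Ddit4 and Txnip between tKO and dKO hepatocytes, with the others picked around them, so hepatocyte values of Ddit4 and Txnip, and every tKO against dKO value, are given as descriptions with no test.

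Liver gave 4 wild-type (WT) and 4 SMSrKO libraries, from mice all on a high-fat diet with fructose in their drinking water for 16 weeks. Hepatocytes were freed by collagenase digestion from mice 2 months old and gave 3 WT, 3 Sms1/Sms2-dKO (dKO) and 3 Sms1/Sms2/Smsr-tKO (tKO) libraries. Sms1 and Sms2 are the sphingomyelin synthases (gene symbols Sgms1 and Sgms2). SMSr is a related enzyme (gene symbol Samd8) that, by the labels, is lost in SMSrKO and tKO but not in dKO. No source used here gives how the alleles were made, the sex of the mice, their feeding state or the hour of collection. The labels tie no library to a named animal. The p-values below therefore stand against the spread of these libraries, part of which may be technical. Count differences between 2 libraries of a group were taken as chi-square per gene, which rises with depth. They were 1.56 to 2.76 in hepatocytes and 23.9 to 185 in the deeper liver libraries. Spread between animals may thus be missing from the hepatocyte p-values, which was not tested.

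The depth was 24391627 to 47351126 counts per liver library and 9221488 to 9665309 expected counts per hepatocyte library. The biological coefficient of variation common to all genes was 20.3% in liver and 3.52% in hepatocytes. RNA of the targeted genes showed no loss by which the labels could be checked. Samd8 was 42.6 ± 6.38 CPM (mean ± SD, n = 4) in WT and 54.2 ± 3.67 in SMSrKO liver, and 69.7 ± 3.57, 81.6 ± 6.01 and 101 ± 2.94 CPM (n = 3 each) in WT, dKO and tKO hepatocytes, so libraries labelled as lacking SMSr did not have less of it. Sgms1 stood at 49.8 ± 3.34, 90.5 ± 5.54 and 58.7 ± 3.31 CPM and Sgms2 at 183 ± 7.70, 150 ± 15.8 and 150 ± 7.14 CPM in the same 3 groups. Sgms1 was thus higher in both knockout groups, and Sgms2 was lower but far from absent. Groups below are therefore groups of libraries as labelled. The extract protocol names subcutaneous white fat for the SMSrKO experiment whereas the tissue label says liver. The hepatocyte gene Alb was at 35390 to 62530 CPM in all 8 of those libraries, while Adipoq, a fat cell gene, had 0 to 3 counts and Lep, another, had 0. CPM is a count relative to the library total, after scaling the totals by the trimmed mean of M values (TMM).

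Glucocorticoids act through the glucocorticoid receptor, a ligand-activated transcription factor that binds DNA as a dimer and raises genes for amino acid breakdown, glucose output and the stress response in the fasting liver. Fkbp5 and Tsc22d3 are receptor targets that damp the response, and Tat and Zbtb16 are further receptor targets. Ddit4 (REDD1) restrains the growth kinase complex mTORC1, and Txnip binds thioredoxin and restrains glucose uptake. Insulin opposes fasting by driving FoxO factors out of the nucleus, which lowers Igfbp1 and Irs2, while fatty acids raise Angptl4 through PPAR nuclear receptors.

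The start regions of 3 of the genes are shown because they differ in the letters such factors are known to bind. The sequences are RefSeq windows of GRCm38.p6 from 250 bases before to 50 bases after an annotated start, printed 5′ to 3′ along the gene, with matched motifs in capitals. Ddit4 is on the minus strand at chr10:59951721-59952020, Txnip on the plus strand at chr3:96557707-96558006, and the Sgk1 window, 1 of 6 annotated for that gene, on the plus strand at chr10:21993640-21993939.
Ddit4: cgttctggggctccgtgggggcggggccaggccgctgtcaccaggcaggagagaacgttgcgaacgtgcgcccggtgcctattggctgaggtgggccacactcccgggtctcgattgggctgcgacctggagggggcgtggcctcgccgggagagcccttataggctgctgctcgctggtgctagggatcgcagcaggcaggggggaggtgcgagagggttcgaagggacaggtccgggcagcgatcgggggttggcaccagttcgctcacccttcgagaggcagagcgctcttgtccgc
Txnip: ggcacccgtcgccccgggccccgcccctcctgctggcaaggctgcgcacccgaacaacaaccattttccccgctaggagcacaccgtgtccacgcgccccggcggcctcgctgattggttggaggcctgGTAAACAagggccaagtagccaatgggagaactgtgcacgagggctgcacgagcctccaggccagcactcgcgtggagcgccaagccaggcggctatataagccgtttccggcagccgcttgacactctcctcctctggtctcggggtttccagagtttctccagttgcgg
Sgk1: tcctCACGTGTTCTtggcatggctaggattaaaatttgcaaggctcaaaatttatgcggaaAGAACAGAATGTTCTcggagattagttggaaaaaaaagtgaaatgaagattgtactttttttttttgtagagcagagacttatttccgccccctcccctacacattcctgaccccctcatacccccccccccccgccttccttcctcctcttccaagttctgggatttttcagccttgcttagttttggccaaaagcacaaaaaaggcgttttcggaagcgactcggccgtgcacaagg

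The motifs searched, on both strands, were the glucocorticoid hexamer AGAACA, the same hexamer followed 3 bases later by TGTTCT (a paired element, which holds a hexamer on each strand), the forkhead site GTAAACA of FoxO and FoxA factors, the E-box CACGTG, the cAMP core TGACG and the cAMP site TGACGTCA, which contains the core. The paired glucocorticoid element starts 189 bases before the start in the Sgk1 window, and the same window holds an E-box and, overlapping it, a further glucocorticoid hexamer. The paired element was found in 3 of 32851 windows of this length (0.00913%), and single hexamers in 19.0%. The Txnip window holds the forkhead letters 121 bases before its start, as do 3.65% of all windows, and the Ddit4 window holds none of the motifs. Windows were matched for 8 of the 10 genes, all but Angptl4 and Zbtb16. An E-box (7.15% of windows) lies in those of Fkbp5 and Irs2 as well, and a glucocorticoid hexamer and a cAMP core (20.8% of windows) in windows of Tsc22d3 and in other windows of Sgk1. The windows of Igfbp1 and Tat hold none of the motifs, and the cAMP site (1.79% of windows) is in none of the 8 genes' windows. Only exact letters were matched, so sites that vary from them were not counted, also in windows said to hold none. These matches are letters and not measured binding.

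In hepatocytes, Ddit4 was highest in dKO and lowest in tKO, and Txnip the reverse. Ddit4, at chromosome 10, 59949675 to 59951770 on GRCm38, was at 55.4, 55.9 and 64.2 CPM in the WT libraries, at 109, 107 and 107 CPM in dKO and at 23.8, 26.5 and 24.0 CPM in tKO. No 2 of the 3 groups overlapped, which held for many genes here. Of 11471 tested genes, 5949 had no overlap between dKO and WT, 6125 between tKO and WT and 4562 between tKO and dKO. The dKO level was 1.84-fold the WT level (log2 0.88), the tKO level was 2.36-fold below WT (log2 −1.24), and tKO was 4.33-fold below dKO (log2 −2.12). Txnip, at chromosome 3, 96557957 to 96561883, was at 73.4, 65.3 and 60.0 CPM in WT, at 37.2, 36.9 and 41.6 CPM in dKO and at 126, 110 and 108 CPM in tKO. Again the groups did not overlap, with dKO 1.72-fold below WT (log2 −0.78), tKO 1.73-fold above WT (log2 0.79) and tKO 2.97-fold above dKO (log2 1.57). An opposite-strand gene, Gm15441, shares exon sequence with Txnip, and the strand setting of the counts is not given, so reads of the pair may be mixed. Gm15441 had 0.151 to 5.80 CPM in liver, against 86.2 CPM or more for Txnip.

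**Figure D1:**
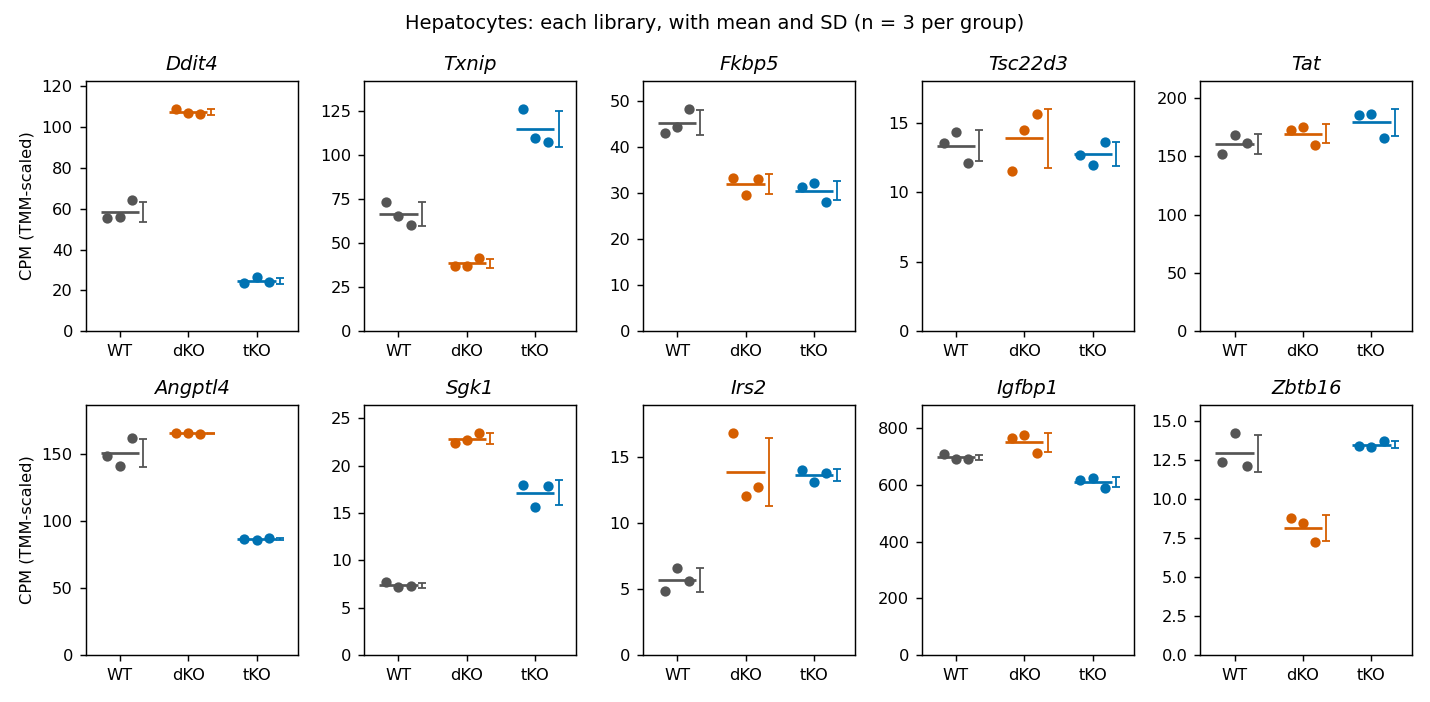
Normalised counts (CPM, linear axes from 0) of the 10 genes in every hepatocyte library of the WT, dKO and tKO groups, 3 libraries each. Points are libraries, horizontal lines are means and the bar beside each group is ± 1 SD. Ddit4 and Txnip run in opposite order over the groups, Sgk1 and Irs2 lie above WT in both knockout groups, and Fkbp5 lies below WT in both.

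The genes whose levels lay nearest to Ddit4 over the 9 hepatocyte libraries were found by the root mean square difference of centred log2 CPM among 9337 genes with a mean of at least 5 CPM. They were Il33, an alarmin cytokine (0.20), Ndufa4l2, a hypoxia-responsive mitochondrial protein (0.23), and the cytochrome Cyp3a41a (0.23), whose near-identical relatives make its counts uncertain. Il33 was at 34.5 ± 1.01, 48.2 ± 2.37 and 13.7 ± 1.08 CPM (n = 3 each) in WT, dKO and tKO. For Txnip the nearest were Csad, a taurine synthesis enzyme (0.16), Hgsnat, a lysosomal acetyltransferase (0.17), and Derl3, a protein of endoplasmic reticulum degradation (0.17). Hgsnat was at 380.0 ± 14.8, 273 ± 17.1 and 672 ± 21.0 CPM. These likenesses are descriptions over 9 libraries of 3 groups.

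Among the 8 other genes, 6 differed between dKO and WT hepatocytes, 4 higher and 2 lower, where 44.0% of the 11471 genes tested were called (edgeR quasi-likelihood test, Benjamini-Hochberg adjusted p under 0.05). Between tKO and WT 6 of the 8 also differed, 3 higher and 3 lower, where 47.4% of genes were called. Libraries of a hepatocyte group lay close together, and small differences passed, such as 1.08-fold for Igfbp1 and 1.10-fold for Angptl4 in dKO. Groups did not overlap for 6 of the 8 in dKO against WT and 5 of the 8 in tKO against WT, beside 5949 and 6125 of all 11471 genes. Both comparisons use the same WT libraries, and they share the dKO and tKO libraries with the contrast behind the choice of genes. In that contrast, tKO against dKO, 29.5% of all genes and 6 of the 10 were called, a count that the choice makes uninformative.

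Of the receptor's targets, Fkbp5, a cochaperone that lowers the receptor's hormone binding, fell in both knockout groups. It was at 43.1, 44.2 and 48.2 CPM in WT, at 33.2, 29.4 and 33.1 CPM in dKO and at 31.3, 32.0 and 28.1 CPM in tKO, with every knockout library below every WT library. The log2 difference from WT (± SE, here and below) was −0.50 ± 0.08 in dKO (edgeR adjusted p = 5.14e-08) and −0.57 ± 0.08 in tKO (edgeR adjusted p = 1.15e-09). Tsc22d3 (GILZ), an anti-inflammatory leucine zipper protein and one of the most used glucocorticoid reporters, was at 12.1 to 14.4 CPM in WT, 11.5 to 15.6 in dKO and 12.0 to 13.6 in tKO. These groups overlapped, and the 95% intervals of the log2 difference from WT were −0.19 to 0.30 in dKO and −0.31 to 0.18 in tKO. Fkbp5 thus passed the test in both groups and Tsc22d3 in neither.

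Zbtb16 (PLZF), a zinc finger transcription factor, was at 12.4, 14.3 and 12.1 CPM in WT, at 8.76, 8.49 and 7.22 CPM in dKO and at 13.4, 13.3 and 13.7 CPM in tKO. It fell in dKO by 0.66 ± 0.13 on the log2 scale (edgeR adjusted p = 2.41e-05), while tKO differed from WT by 0.06 ± 0.12 (edgeR adjusted p = 0.717). The tKO libraries lay above all dKO libraries, a log2 difference of 0.72. Tat, the tyrosine-degrading aminotransferase on which much of the hormone's action in liver was worked out, was at 152, 168 and 162 CPM in WT, 173, 176 and 160.0 CPM in dKO and 186, 186 and 166 CPM in tKO. The tKO difference from WT, 0.16 ± 0.05 on the log2 scale, passed the test (edgeR adjusted p = 0.00448) although 1 tKO library lay below 1 WT library, and without WT 1 it did not pass (adjusted p = 0.0671). The dKO difference was 0.08 ± 0.05 (edgeR adjusted p = 0.203).

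Sgk1, a serum- and glucocorticoid-induced kinase that phosphorylates FoxO factors and ion channel regulators, showed the largest change from WT of the 8 in dKO. It was at 7.67, 7.13 and 7.26 CPM in WT, at 22.4, 22.7 and 23.5 CPM in dKO and at 17.95, 15.6 and 17.9 CPM in tKO, and none of the 3 groups overlapped. It rose 3.11-fold in dKO (log2 1.64 ± 0.12, edgeR adjusted p = 5.09e-21) and 2.33-fold in tKO (log2 1.22 ± 0.12, edgeR adjusted p = 3.82e-14), and the tKO level was 1.33-fold below dKO. Irs2, the docking protein that passes the insulin receptor's signal on, was at 4.82, 6.59 and 5.63 CPM in WT, at 16.9, 12.0 and 12.7 CPM in dKO and at 14.0, 13.1 and 13.8 CPM in tKO. It rose 2.44-fold in dKO (log2 1.29 ± 0.15, edgeR adjusted p = 7.66e-12) and 2.40-fold in tKO (log2 1.26 ± 0.15, edgeR adjusted p = 1.13e-11), and dKO and tKO overlapped. Its counts were low, 44 to 61 per WT library and 112 to 158 in the others, and its exons overlap those of the opposite-strand gene 9530052E02Rik, which had at most 0.214 CPM in liver.

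Igfbp1, a secreted binding protein of insulin-like growth factors that insulin represses, had the highest CPM of the 10. It was at 708, 693 and 692 CPM in WT, at 765.5, 776 and 713 CPM in dKO and at 618, 625 and 590.0 CPM in tKO. The 3 groups did not overlap, but the steps were small, 1.08-fold above WT in dKO (edgeR adjusted p = 0.0136) and 1.14-fold below WT in tKO (log2 −0.19 ± 0.04, edgeR adjusted p = 1.12e-05). The dKO call was lost without WT 2, WT 3, dKO 4 or dKO 5 (adjusted p from 0.057 to 0.114). Angptl4, a secreted inhibitor of lipoprotein lipase, was at 148, 141 and 162 CPM in WT, at 166, 166 and 165 CPM in dKO and at 86.4, 85.4 and 87.0 CPM in tKO. It fell 1.75-fold in tKO (log2 −0.80 ± 0.05, edgeR adjusted p = 3.07e-24), with all tKO libraries below all others. Its dKO difference of 0.13 ± 0.05 (edgeR adjusted p = 0.0169) was lost without WT 1 or WT 2 (adjusted p = 0.0666 and 0.194).

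A far stricter setting put the common liver dispersion (20.3%) in place of the hepatocytes' own spread, for every gene alike. Sgk1 and Irs2 then kept their calls in both knockout groups and Angptl4 in tKO, where 9.20% of all genes were called in dKO and 10.6% in tKO. The genes' own liver spread differed from 20.3%. Coefficients of variation in WT and SMSrKO liver were 48.2% and 31.2% for Irs2, 29.3% and 25% for Sgk1, and 14% and 10.9% for Angptl4. Calls at each gene's own liver spread were not tested. In tKO against dKO 2.84% of all genes and 3 of the 10 were called at that spread, and the choice of genes makes this count uninformative. Fkbp5 then lost its calls (adjusted p = 0.285 in dKO and 0.152 in tKO), as did Zbtb16 in dKO (0.117), Igfbp1 and Angptl4 in dKO (0.978 and 0.968), and Tat and Igfbp1 in tKO (0.895 and 0.849).

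**Figure D2:**
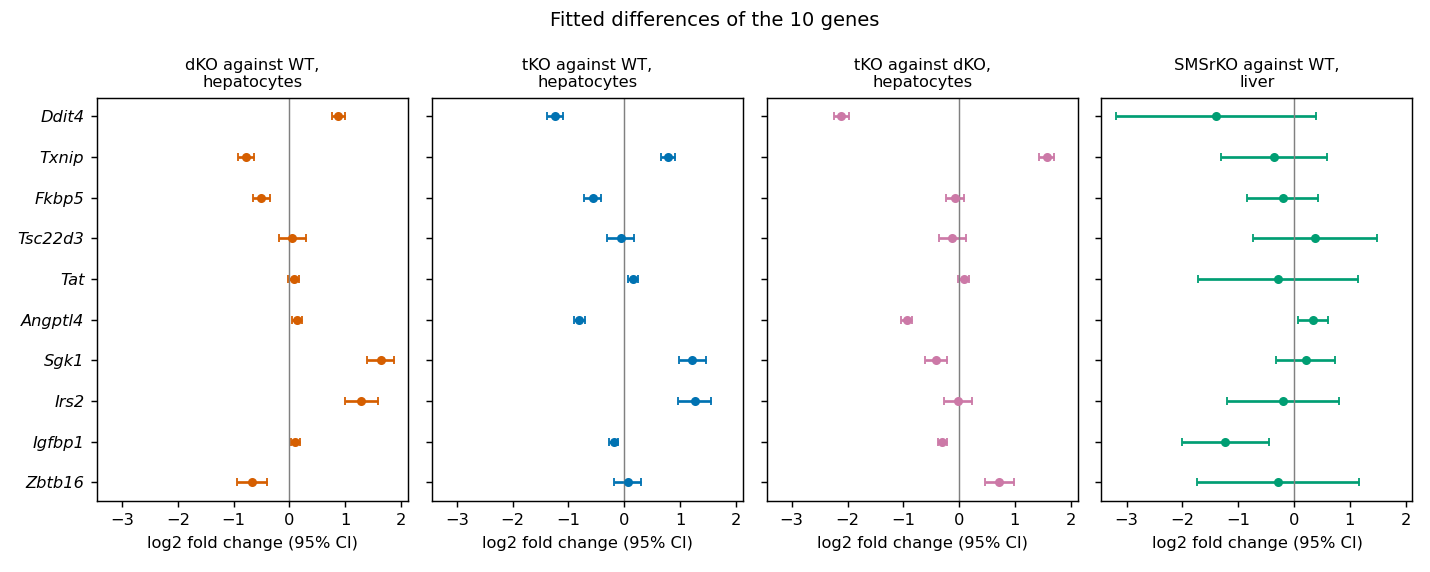
Fitted log2 fold changes of the 10 genes with 95% confidence intervals (horizontal bars) in 4 comparisons, 3 among hepatocyte groups and 1 in liver, on a shared axis with a line at 0. Hepatocyte intervals are narrow. Those of Ddit4 and Txnip, and all of tKO against dKO, are descriptions and carry no test, as in the text. Liver intervals of 8 of the 10 genes span 0, all but those of Angptl4 and Igfbp1.

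Per gene length, the deposited FPKM values put Igfbp1 first in all 3 hepatocyte groups (476 ± 5.22, 514 ± 21.98 and 425 ± 10.4 FPKM in WT, dKO and tKO). In WT, Angptl4 (80.7 ± 5.81), Tat (68.9 ± 3.71), Ddit4 (35.9 ± 3.14), Txnip (24.0 ± 2.39) and Fkbp5 (11.7 ± 0.722) followed, and Irs2 was last at 1.43 ± 0.220 FPKM. No neighbours in the WT or dKO order overlapped. Ddit4 stood above Txnip in WT and dKO, 66.1 ± 1.08 against 14.0 ± 0.991 FPKM in dKO, and below it in tKO, 15.5 ± 0.923 against 42.3 ± 3.55 FPKM. Fkbp5 and Sgk1 were the only neighbours in the tKO order whose libraries overlapped, at 8.06 ± 0.518 and 7.16 ± 0.557 FPKM.

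RNA of cell type markers and of genes induced by handling differed between these groups as well. Summed over 10 listed macrophage genes, levels were 121 to 136 CPM in WT, 320 to 338 in dKO and 365 to 386 in tKO, and over 9 endothelial genes 23.9 to 25.3, 156 to 173 and 89.5 to 96.0 CPM. The macrophage sums were nearly all Cd68 and Mpeg1. Cd68 averaged 100.3, 201 and 247.6 CPM in WT, dKO and tKO, and Mpeg1 121.8 in dKO and 116.5 in tKO. Of the 5 tested macrophage genes only Cd68 had a higher mean in tKO than in dKO, and Mpeg1, C1qa, C1qb and C1qc had lower means. The macrophage gene Adgre1 had 0 to 2 counts in WT libraries, 7 to 15 in dKO and 4 to 9 in tKO. Over 8 stellate cell genes the sums were 15.8 to 19.7, 50.4 to 55.9 and 31.9 to 36.0 CPM, and all lymphocyte gene sums were under 1 CPM. The WT stellate sums were nearly all Reln, which changed little (means 17.5, 18.4 and 16.3 CPM). Their rise was mostly Dcn (0.434, 29.0 and 15.4 CPM), while the stellate cell gene Lrat had 0 to 2 counts per library. Immediate early genes, which cell isolation is known to induce, summed to 1150 to 1240 CPM over 12 genes in WT, 1860 to 1920 in dKO and 1750 to 1820 in tKO. Hepatocyte marker genes summed to 60200 to 62300, 52800 to 53800 and 49100 to 50900 CPM, most of it Alb (means 48740, 41770 and 37620 CPM). Of the 8 genes, 1 was called higher and 4 lower than WT in dKO, and 1 higher and 3 lower in tKO. Hnf4a, at 158, 122 and 173 CPM, was highest in tKO. Over 5 bile duct genes the sums were 246 to 261, 373 to 395 and 249 to 266 CPM, nearly all of them Sox9 (77.6, 206 and 163 CPM) and Spp1 (176, 177 and 90.7 CPM), while Krt19 and Krt7 were under 1 CPM in each group. Sgk1 and Irs2 were higher in both knockout groups, as were the macrophage, endothelial, stellate and immediate early sums, and the order WT, tKO, dKO of Sgk1 was also that of the endothelial, stellate and immediate early sums. Not every immediate early gene had that order. Egr1 (means 129.5, 211 and 312 CPM in WT, dKO and tKO), Atf3 and Myc were highest in tKO, and Btg2 was lower in tKO than in WT. The part of cell makeup and handling in the 10 genes' values was not tested, and in such bulk samples more cells of a type and more RNA per cell cannot be told apart.

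Further genes of the same pathways were read from 7 lists of 69 genes, of which 67 were tested in hepatocytes. In dKO 27 were higher and 17 lower than WT, and in tKO 23 were higher and 24 lower, against the background shares of 44.0% and 47.4% given above. In the receptor and hormone handling list, 1 of 8 genes rose and 5 fell in dKO, and 3 rose and 2 fell in tKO, with list medians of −0.14 and 0.07 on the log2 scale (all tested genes −0.01 and 0.00). The receptor itself, Nr3c1, did not pass in either (log2 −0.03 and 0.12, edgeR adjusted p = 0.74 and 0.0669); it is given outside the rule for named genes. Hsd11b1, which regenerates active hormone inside the cell, was at 258 CPM in WT, 224 in dKO and 119 in tKO, falling by 0.21 ± 0.04 and 1.12 ± 0.05 on the log2 scale (edgeR adjusted p = 3.9e-05 and 4.54e-36). Fkbp4, the cochaperone that opposes Fkbp5, fell in dKO by 0.61 ± 0.05 (edgeR adjusted p = 1.36e-18). Serpina6, the hormone's plasma carrier, fell in tKO by 0.68 ± 0.06 (edgeR adjusted p = 4.26e-17), and Hsp90aa1, a receptor chaperone, fell in dKO by 0.14 ± 0.04 and rose in tKO by 0.20 ± 0.04 (edgeR adjusted p = 0.000535 and 1.69e-06).

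Of 13 other tested receptor targets, 9 rose and none fell in dKO, and 6 rose and 3 fell in tKO, with list medians of 0.22 and 0.12. Nfkbia, the inhibitor of NF-kappa B and also its target, rose from 62.0 CPM in WT to 163 in dKO and 141 in tKO (log2 1.39 ± 0.05 and 1.18 ± 0.05, edgeR adjusted p = 1.4e-38 and 1.23e-33). Cebpd, a transcription factor of the acute phase, rose in dKO by 1.502 ± 0.06 (edgeR adjusted p = 7.91e-38), Lpin1, a phosphatidate phosphatase and coactivator, by 0.41 ± 0.05 (edgeR adjusted p = 9.89e-10), and Dusp1, a phosphatase of stress kinases, rose in tKO by 0.69 ± 0.04 (edgeR adjusted p = 5.42e-24). The metal-binding Mt2 fell in tKO by 0.76 ± 0.04, from 2796 to 1653 CPM (edgeR adjusted p = 1.15e-19). Receptor targets of this list thus moved both ways in tKO, as Fkbp5 and Sgk1 did.

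**Figure D3:**
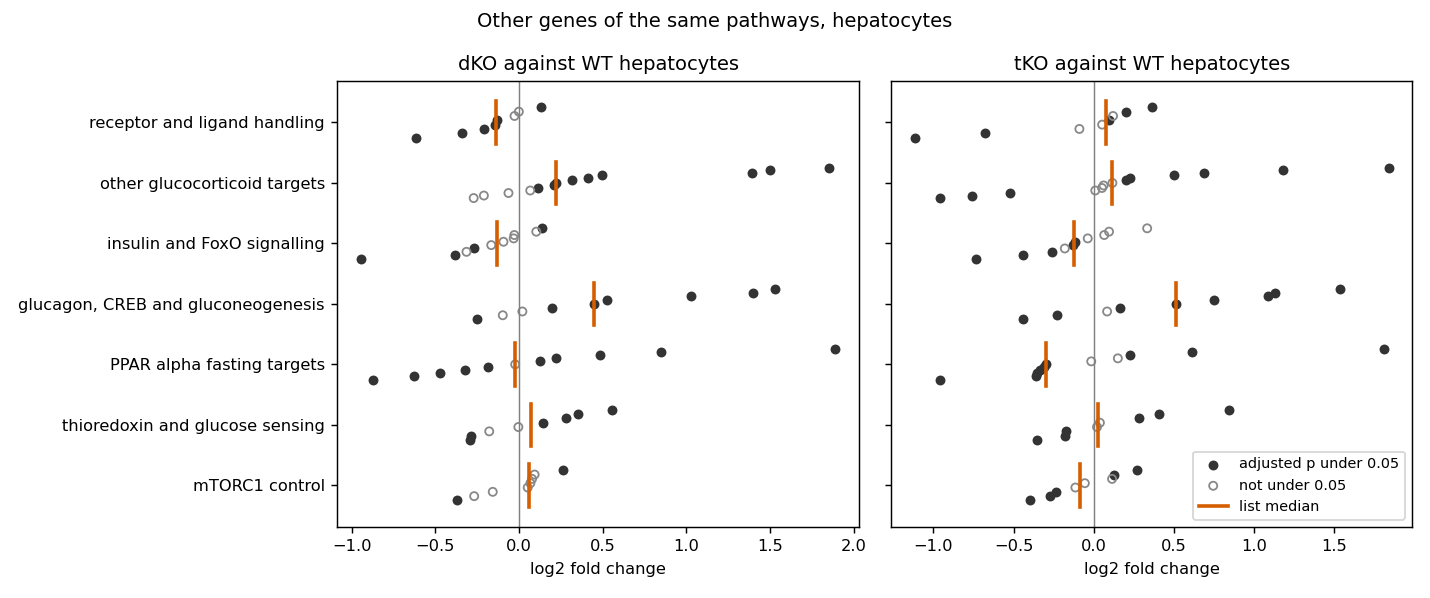
Log2 fold changes from WT of further genes in 7 pathway lists in dKO (left) and tKO (right) hepatocytes. Each point is a gene, filled where the edgeR adjusted p was under 0.05, and the vertical bar marks the list's median. List medians lie between −0.30 and 0.52, and each list holds genes on both sides of 0.

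In the list of glucagon signalling and glucose output, 6 of 9 genes rose and 1 fell in dKO, and 6 rose and 2 fell in tKO (medians 0.45 and 0.52). Nr4a1, a cAMP-induced nuclear receptor that is also an immediate early gene, rose by 1.40 ± 0.13 and 1.54 ± 0.12 (edgeR adjusted p = 3.9e-16 and 1.1e-18), and Sik1, a cAMP-induced kinase, by 0.45 ± 0.06 and 1.09 ± 0.06 (edgeR adjusted p = 6.32e-10 and 7.51e-30). Ppargc1a, the coactivator of the fasting programme, rose in dKO from 3.44 to 9.95 CPM (log2 1.53 ± 0.18, edgeR adjusted p = 6.9e-12), and Fbp1, an enzyme of glucose synthesis, fell in tKO by 0.44 ± 0.04 (edgeR adjusted p = 4.11e-15). In the insulin and FoxO list, 1 of 10 rose and 3 fell in dKO and 5 fell in tKO (medians −0.13 and −0.12). Cited2 fell by 0.38 ± 0.04 and 0.74 ± 0.04 (edgeR adjusted p = 4.4e-13 and 4.58e-27), and the insulin receptor Insr fell in dKO by 0.27 ± 0.06 (edgeR adjusted p = 3.4e-05). Foxo3 and Foxo1 fell in tKO by 0.44 ± 0.10 and 0.26 ± 0.08 (edgeR adjusted p = 9.53e-05 and 0.00642).

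Of 11 tested PPAR alpha fasting targets, 5 rose and 5 fell in dKO and 3 rose and 6 fell in tKO (medians −0.02 and −0.30). Pdk4, which shuts glucose carbon out of the citric acid cycle, rose from 59.0 CPM in WT to 218 in dKO and 207 in tKO (log2 1.89 ± 0.05 and 1.81 ± 0.05, edgeR adjusted p = 1.39e-47 and 2.02e-46). Cyp4a10, a fatty acid hydroxylase, fell in dKO by 0.63 ± 0.04 and its relative Cyp4a14 rose in tKO by 0.61 ± 0.04 (edgeR adjusted p = 7.12e-22 and 8.72e-23). Vnn1 rose in dKO by 0.85 ± 0.08 (edgeR adjusted p = 1.99e-15). In the thioredoxin and glucose sensing list 4 of 8 rose and 2 fell in dKO and 3 rose and 3 fell in tKO (medians 0.07 and 0.03), and Arrdc4, the closest relative of Txnip there, rose in dKO by 0.28 ± 0.04 (edgeR adjusted p = 5.19e-08) where Txnip was below WT. Mean levels of Arrdc4 were 214, 260 and 189 CPM in WT, dKO and tKO. Txn2, the mitochondrial thioredoxin, fell in dKO by 0.28 ± 0.05, and Txn1, the thioredoxin of the cytosol, rose in tKO by 0.28 ± 0.04 (edgeR adjusted p = 1.59e-07 and 8.68e-09). Pklr, a glucose-induced glycolytic enzyme, rose by 0.35 ± 0.05 and 0.84 ± 0.05 (edgeR adjusted p = 7.3e-09 and 1.59e-24), and Mlxipl, the glucose-sensing factor ChREBP, fell in tKO by 0.35 ± 0.06 (edgeR adjusted p = 1.16e-07). Of 8 genes of mTORC1 control, 1 rose and 1 fell in dKO and 2 rose and 3 fell in tKO (medians 0.06 and −0.08). Sesn2, which like Ddit4 restrains mTORC1, was at 39.3 CPM in WT, 47.1 in dKO and 29.9 in tKO, rising by 0.26 ± 0.07 and falling by 0.40 ± 0.08 (edgeR adjusted p = 0.00162 and 7.63e-06). Rptor, a subunit of mTORC1, was at 73.4 CPM in WT, 56.9 in dKO and 62.4 in tKO, and fell in dKO by 0.37 ± 0.06 and in tKO by 0.24 ± 0.06 (edgeR adjusted p = 9.68e-07 and 0.00106). In tKO the kinase Mtor fell by 0.27 ± 0.07, and Tsc1, which restrains mTORC1, rose by 0.27 ± 0.07 (edgeR adjusted p = 0.000676 and 0.000476). With the common liver dispersion, 8 of the 67 stayed higher and 2 lower in dKO, where 9.20% of all genes were called, and 9 and 5 in tKO, where 10.6% were called, among them Nfkbia, Nr4a1 and Pdk4 in both.

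In liver the SMSrKO group gave no call among the 10 genes, where 0.234% of 15820 tested genes were called, and no gene's WT and SMSrKO libraries were apart, which held for 8.12% of all genes. Unadjusted p fell under 0.05 for 2 of the 10, Igfbp1 lower and Angptl4 higher, and for 13.1% of all tested genes, so that count is near the background. Igfbp1, at chromosome 11, 7197782 to 7202546, was at 128, 166, 203 and 275 CPM in WT and at 58.9, 132, 86.8 and 51.1 CPM in SMSrKO. Only SMSrKO 6, at 132 CPM, reached above the lowest WT library. The group means of 193 ± 62.7 and 82.2 ± 36.7 CPM (n = 4 each) differed by −1.23 ± 0.34 on the log2 scale (95% CI −2.01 to −0.45), with an unadjusted p of 0.00621 and an adjusted p of 0.197 by edgeR, against an adjusted p of 0.00513 by DESeq2 (0.00513 to 0.42 over all alternatives). It was the only call among the 10 by DESeq2. Angptl4 was at 82.8, 118, 103 and 103 CPM in WT and at 131, 145, 129 and 111 CPM in SMSrKO, a log2 difference of 0.35 ± 0.12 (edgeR unadjusted p = 0.0165, adjusted p = 0.266).

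**Figure D4:**
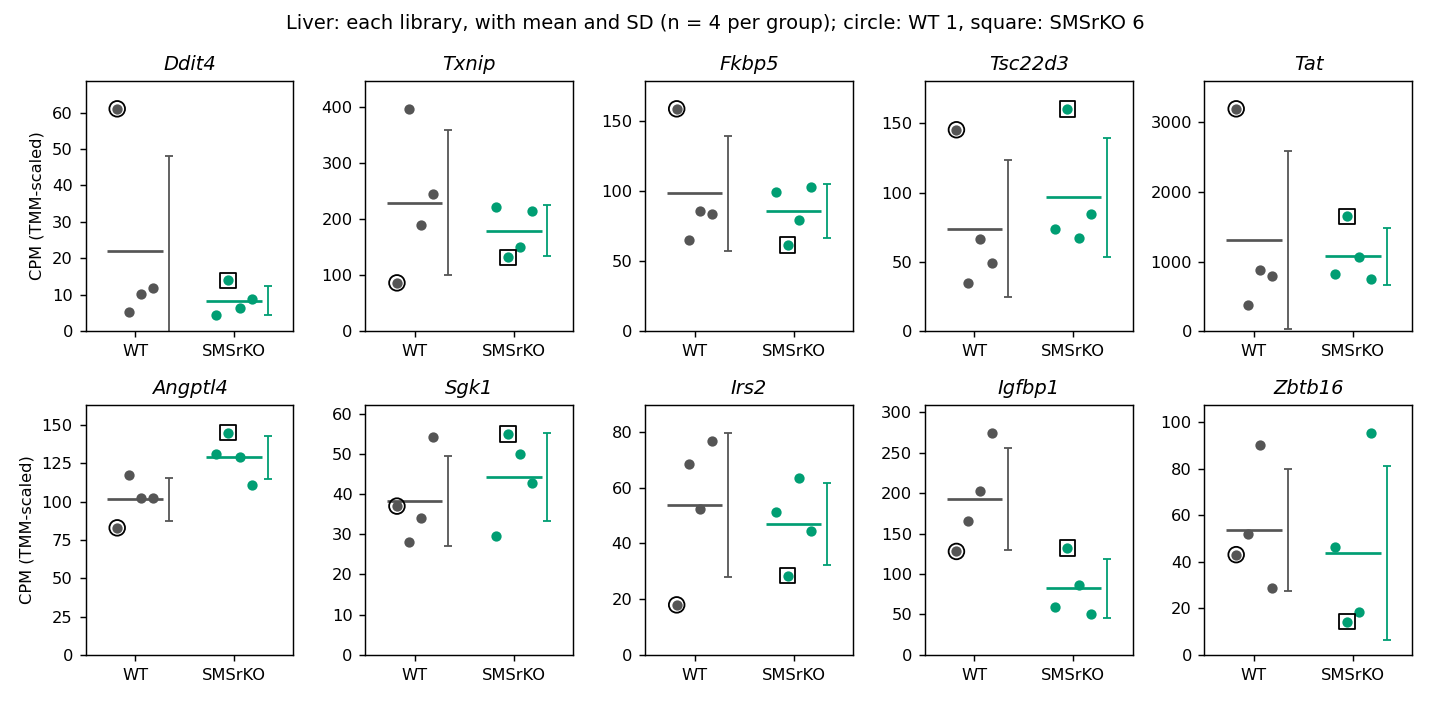
Normalised counts (CPM, linear axes from 0) of the 10 genes in every liver library, 4 WT and 4 SMSrKO. Points are libraries, lines are means and bars are ± 1 SD, which for Ddit4 in WT runs past 0 and is clipped there. The circle marks WT 1 and the square SMSrKO 6, which are the highest libraries of their groups for Ddit4, Tat and Tsc22d3 and the lowest for Txnip and Irs2.

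Ddit4 in liver was at 61.0, 5.23, 10.3 and 11.9 CPM in WT and at 4.48, 14.0, 6.50 and 8.72 CPM in SMSrKO. WT 1 alone stood apart, and the other 3 WT libraries lay among the SMSrKO ones. The log2 difference was −1.40 ± 0.78 with WT 1 (edgeR adjusted p = 0.487) and −0.12 without it. Txnip was at 86.2, 397, 189 and 245 CPM in WT and at 222, 132, 150 and 215 CPM in SMSrKO, with WT 1 the lowest of the 8 and WT 2 the highest, and a log2 difference of −0.35 ± 0.41 (edgeR adjusted p = 0.75), which was −0.625 without WT 1 and 0.056 without WT 2. Tat was at 3192, 379, 872 and 789 CPM in WT and at 826, 1648, 1068 and 751 CPM in SMSrKO. Its log2 difference turned from −0.29 ± 0.62 to 0.65 without WT 1, and that of Fkbp5 from −0.20 ± 0.28 to 0.13. Fkbp5 was at 158, 65.3, 85.8 and 83.5 CPM in WT and at 99.2, 61.4, 79.2 and 103 CPM in SMSrKO.

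Tsc22d3 in liver was at 145, 34.5, 66.6 and 49.0 CPM in WT and at 73.5, 160.4, 67.2 and 84.7 CPM in SMSrKO, the pair WT 1 and SMSrKO 6 standing above the other 6. Its log2 difference was 0.38 ± 0.48, and 0.94 without WT 1. Irs2 was at 17.9, 68.3, 52.3 and 76.6 CPM in WT and at 51.4, 28.5, 63.5 and 44.4 CPM in SMSrKO, and here the same pair was lowest. Zbtb16 ran from 28.9 to 90.3 CPM in WT and from 14.3 to 95.6 in SMSrKO, and Sgk1 from 27.96 to 54.1 and from 29.4 to 54.8 CPM. Adjusted p-values of these 4 were 0.737 or more by edgeR, and the 95% interval for Sgk1 (log2 −0.32 to 0.74) was the narrowest of them.

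WT 1 and SMSrKO 6 were the 2 highest of the 8 libraries for Ddit4, Tat and Tsc22d3 and the 2 lowest for Txnip and Irs2. This pair was picked after the values were seen, over all 15820 tested genes it was highest for 4.70% and lowest for 3.91%, and the counts carry no test. Among the 69 further pathway genes the pair was highest for 13, 7 of them in the list of 14 other receptor targets (Cebpd, Dusp1, Errfi1, Klf15, Mt1, Mt2 and Sult1e1). It was lowest for 3, among them the fasting genes Pdk4 and Fgf21. Count profiles of WT 1 also differed most from the rest of its group, with a chi-square per gene of 168 to 185 against 26.1 to 56.0 between the other WT libraries. WT 1 was also the deepest liver library, and this measure rises with depth. In WT liver, immediate early genes summed to 428 to 751 CPM and in SMSrKO to 395 to 445, neutrophil genes to 10 to 38.4 and 1.83 to 20.6, and fat cell genes to 3.59 to 95.3 and 10.4 to 16.7 CPM. The fat cell sums were nearly all Cidec, a lipid droplet gene that fatty hepatocytes also express (mean 51.0 CPM in WT and 14.4 in SMSrKO). Hepatocyte marker genes summed to 63500 to 70600 CPM in WT and 79000 to 90500 in SMSrKO over 8 genes, and these groups did not overlap. Most of these sums was Alb (mean 43010 CPM in WT and 58720 in SMSrKO). Alb was the only 1 of the 8 whose groups did not overlap. Fitted log2 differences of the 8 ran from 0.09 to 0.45, and none was called. The part of cell makeup and handling in these values was not tested.

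**Figure D5:**
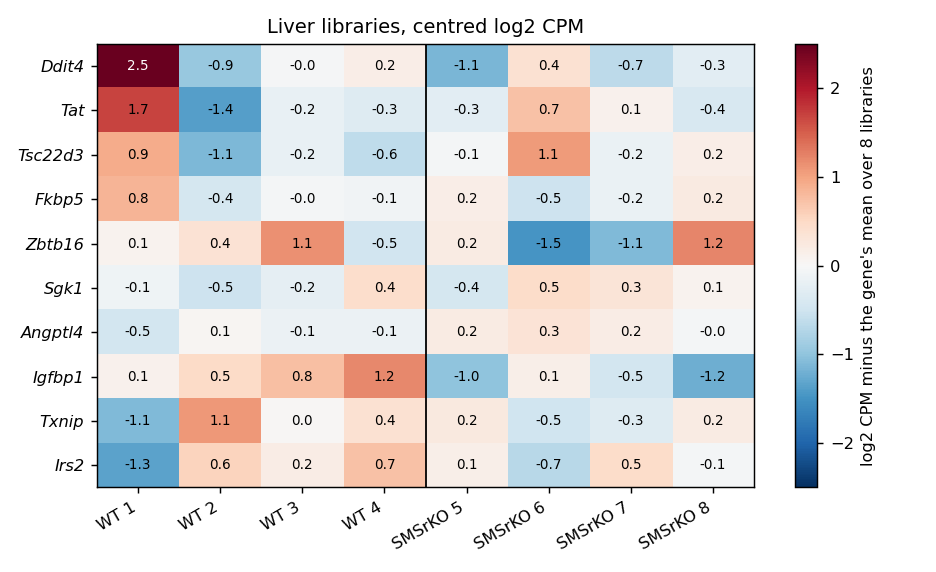
Log2 CPM of the 10 genes in the 8 liver libraries, each gene centred on its mean over the libraries, with red above and blue below that mean and a line between WT and SMSrKO. WT 1 and SMSrKO 6 are red for Ddit4, Tat and Tsc22d3 and blue for Txnip and Irs2, while Fkbp5 is red in WT 1 and blue in SMSrKO 6.

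By deposited TPM, which allows levels of genes to be compared, Tat led in both liver groups, at 1179 ± 1095 TPM in WT and 960.0 ± 350 TPM in SMSrKO (n = 4 each). Igfbp1 followed in WT at 286 ± 101 TPM and Txnip in SMSrKO at 124 ± 32.5 TPM. In WT every neighbour in the order overlapped the next, and in SMSrKO only Tat stood clear of the gene below it. Ddit4 was seventh in WT at 28.3 ± 32.2 TPM and last in SMSrKO at 10.8 ± 5.18 TPM. Within groups, the coefficient of variation of CPM over the 10 genes had a median of 48.6% in WT and 34.5% in SMSrKO liver, and of 5.79% to 7.77% in the hepatocyte groups.

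Among the 69 further pathway genes in liver, 1 was called. Klf9, a receptor target and transcription factor, rose from 103 to 151 CPM (log2 0.55 ± 0.09, edgeR adjusted p = 0.0434), but its adjusted p ran from 0.0326 to 0.158 when a library was left out, highest without WT 4. Hsd11b1 was at 383 CPM in WT and 562 in SMSrKO (log2 0.55 ± 0.12, edgeR adjusted p = 0.0964) with groups that did not overlap, and G6pc, which releases free glucose, was at 513 and 185 CPM (log2 −1.47 ± 0.29, edgeR adjusted p = 0.093), again with no overlap. Cyp4a14 and Cyp4a10 were at 2347 and 1535 CPM in WT and 4602 and 3015 in SMSrKO (edgeR adjusted p = 0.125 and 0.192). Pklr was at 258 and 126 CPM (edgeR adjusted p = 0.337), Sesn2 at 18.9 and 13.7 CPM (edgeR adjusted p = 0.175) and Irs1 at 21.2 and 26.6 CPM (edgeR adjusted p = 0.293). List medians in liver lay between −0.11 and 0.24 on the log2 scale, beside −0.01 for all tested genes.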

How the data were processed

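Gene counts per library were deposited by the authors for 8 liver libraries, with a TPM table, and for 9 hepatocyte libraries the authors deposited expected counts and FPKM values. The submitters' processing notes list Bowtie2 2.2.5, STAR 2.5.2b, Trimmomatic 0.36 and DESeq2 1.30.1, with the builds mm10 and GRCm38. The role of each, the counter and its strand setting are not stated in the sources used here. Expected counts, 6.25% of them not whole, were rounded, and a gene not listed in a hepatocyte file was set to 0. Counts were analysed with edgeR 4.0.16 in R 4.3.3 (filterByExpr with a minimum count of 10, TMM scaling, robust quasi-likelihood test), with 1 fit for liver and 1 for all hepatocyte libraries. All tested genes entered the Benjamini-Hochberg adjustment, and the threshold was 0.05. SE was taken from the log2 fold change and the F statistic of its test.

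TPM and FPKM, as deposited, served only to compare levels between genes and, on log2(value + 0.1), as an alternative with limma 3.58.1. Other alternatives were DESeq2 1.42.0, other scalings, no filter, leaving out each library, fitting only the compared groups, and the common liver dispersion with a likelihood ratio test. No groups share replicate numbers, and no pair of replicate libraries was identical or within sampling noise. Counts of the 10 genes were 44 or more in every library, and depth alone did not set the precision. Ddit4 in liver, with 103 to 2833 counts, had an SE of 0.78 on the log2 scale. Irs2 in dKO against WT hepatocytes, with 44 to 158 counts, had an SE of 0.15.

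The 10 genes, the 7 pathway lists and the 9 marker lists were chosen with earlier results of these data known. All 69 pathway genes were matched in both experiments, and 73 of 74 marker genes in liver and 64 in hepatocytes. Beside the 10 genes, the text names at most 3 genes per pathway list and comparison, those with the smallest p, and the 3 nearest to Ddit4 and to Txnip. Some results for single pathway genes are not reported here. Promoter windows are RefSeq's, GRCm38.p6. Scripts were tested on simulated data.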

Additional observations from a re-analysis of the deposited data

Results flagged for a closer look

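Ddit4 in the liver library WT 1 was at 61.0 CPM, and its gap to the nearest WT library took 0.88 of the range of the 4 WT libraries, which set it apart from the rest of its group. It was 1 of 20 gene and group combinations examined in this way in liver, and chance flags about 1 in 20.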

How the results depend on the processing

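No paired analysis was possible because the groups compared share no replicate numbers. In liver, 37 genes were called in all, against 136 with no filter on low counts, 460 by DESeq2, 22 by limma on TPM, and 11 (without WT 4) to 109 (without WT 1) when a library was left out; none of the 10 genes was called in any of these but by DESeq2, which called 1, Igfbp1. With library totals alone 38.5% of liver calls were higher, against 51.4% with TMM. With the liver dispersion, calls in hepatocytes were 1055 for dKO against WT (4 of the 10 genes), 1221 for tKO against WT (5 of 10) and 326 for tKO against dKO (3 of 10), counts that include Ddit4 and Txnip, chosen on these libraries, so that nothing is read from them. Among the 1055, 82.4% were higher, against 54.5% of 5045. For tKO against WT, 60.0% of calls were higher with library totals alone, against 54.0%. When a library was left out, liver log2 differences changed sign for Fkbp5 (−0.347 to 0.134) and Tat (−0.593 to 0.652), positive without WT 1, for Txnip (−0.625 to 0.056, positive without WT 2), for Zbtb16 (−1.02 to 0.085, positive without WT 3 or, at 0.005, SMSrKO 6) and for Irs2 (−0.488 to 0.026, positive without WT 4), and Tat was at 0.045 by limma. So did Tsc22d3 in dKO against WT (−0.040 to 0.173, negative without dKO 6 or, at −0.012, WT 3) and Irs2 in tKO against dKO (−0.115 to 0.142, positive without dKO 4 or, at 0.005, tKO 8), which was 0 with library totals and 0.017 by limma. The cause was not tested. With all libraries, the 95% interval of each of these differences spanned 0. Among the 8 genes tested against WT, no alternative removed the calls of Sgk1 and Irs2 in both groups or of Angptl4 in tKO, and that of Angptl4 in dKO was also lost by DESeq2 (adjusted p = 0.057). Depth limits Irs2 and Sgk1 most, with 44 to 70 counts in WT hepatocyte libraries.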
